A study of Homo sapiens with 30 samples.

Results

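The BCL2 family genes described here are 10 genes taken by name from the 61578 genes counted in every library: MCL1, BCL2, BCL2L1, BAX, BAK1, BCL2L11, PMAIP1, BBC3, HRK and BIK. All 10 were counted in all 8 count tables, passed the filter on low counts and entered the test. Poly(A) RNA had been sequenced from 30 libraries, 15 groups of 2, every one labelled A549, a line from a human lung adenocarcinoma, to compare gene expression before and after the largest subunit of RNA polymerase II, RPB1, was replaced by forms with a changed C-terminal domain (CTD). The CTD is a tail of heptad repeats that is phosphorylated during transcription.

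The groups differ in RPB1 and treatment. The Y1F, S2A, T4V, S5A and S7A lines carried a degron on endogenous RPB1, so that dTAGV-1 leads to its degradation, and an RPB1 complement induced by doxycycline with the named change at CTD position 1, 2, 4, 5 or 7. The WT line carried the same degron with a wild-type RPB1 complement, and the Degron line carried the degron with no complement. Treated cells of the 6 complemented lines had received 2 µg/mL doxycycline for 24 h and then 100 nM dTAGV-1 for 12 h, and treated Degron cells are labelled with 100 nM dTAGV-1 for 12 h alone. Untreated cells of these 7 lines had received neither agent. The other group, Mock, has a wild-type genotype in its labels and received neither agent. The WT and Degron lines therefore differ in doxycycline as well as in the complement. Whether a line is 1 clone, and whether a group's 2 libraries came from different cultures, is not given in the labels, so p-values measure a spread between libraries that may be technical.

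The Mock libraries carried most of the markers of A549, which were far lower in the 28 libraries of the 7 lines. The 13 markers of A549 and lung epithelium summed to 81.6 to 187 CPM (counts over a TMM-scaled library size) in the 7 lines, against 29646 and 29689 CPM in Mock. Both Mock libraries were above all 28 for 10 of these markers, such as KRT7 (at most 0.160 CPM in the 7 lines) and KRT8 (33.3 to 126 CPM in the 7 lines, against 5507 and 5810 CPM in Mock). SFTPB and SFTPC overlapped, and NKX2-1 was higher in the 7 lines (1.202 to 10.6 CPM, against 0.307 and 0 CPM in Mock). Of these markers 4 were over 1 CPM in all 28 libraries of the 7 lines, and 10 in Mock. CDKN2A and MTAP, which are deleted in A549, summed to 141 to 254 CPM in the 7 lines, against 0.410 and 0.479 CPM in Mock. The 6 kidney HEK293 or neuronal markers summed to 147 to 1684 CPM in the 7 lines, with IRS4 at 50.7 to 1464 CPM, against 61.2 and 65.6 CPM in Mock. Of these, 4 were higher in all 28 libraries than in Mock, PAX2 overlapped, and INA was lower, at 0.0801 to 8.13 CPM in the 7 lines, against 58.1 and 53.0 CPM in Mock. Markers of fibroblasts, immune cells and endothelium summed to at most 53.3, 16.4 and 6.66 CPM in the 7 lines, against at most 10.5, 6.99 and 0.479 CPM in Mock. Log2 CPM of 11503 genes correlated at 0.576 to 0.638 (Pearson r, across genes, which are not independent replicates) between the 7 lines and Mock, and at 0.872 to 0.998 among the libraries of the 7 lines. Library totals were 10866089 to 17912802 counts. POLR2A mRNA, which encodes RPB1, was counted at 411 to 1764 CPM in treated cells of the 7 lines, against 278 to 572 CPM in their untreated cells. In Degron cells, which have no complement, it was at 411 and 689 CPM treated, against 461 and 288 CPM untreated, which overlapped. Reads of the endogenous and the induced copy were not told apart.

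BCL2 family proteins set whether the outer mitochondrial membrane is opened during apoptosis. MCL1, BCL2 and BCL-xL (encoded by BCL2L1) hold cells alive by binding the pore-forming effectors BAX and BAK (BAK1) and the BH3-only proteins. The BH3-only proteins, here BIM (BCL2L11), NOXA (PMAIP1), PUMA (BBC3), HRK and BIK, free or activate the effectors. NOXA binds MCL1 by preference, HRK binds BCL-xL by preference, and BIM and PUMA bind all the survival proteins. MCL1 mRNA and protein are both short-lived, a property often discussed where transcription is blocked. PMAIP1, BBC3 and BAX are textbook p53 targets.

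The sequence before the start site is shown for the 6 genes on which the results below turn, HRK, BBC3, BCL2L1, BAK1, PMAIP1 and BCL2L11. Each is the 250 bases upstream of a RefSeq start (GRCh38.p14), 5′ to 3′ on the gene's strand. Capitals mark 4 motifs searched on both strands, with no overlap between matches: the E-box (CACGTG), the GC box (GGGCGG), the CCAAT box and the TATA box (TATAAA). HRK lies on the minus strand at chr12:116881442-116881691, BBC3 on the minus strand at chr19:47232668-47232917, BCL2L1 on the minus strand at chr20:31723964-31724213 for 1 of its 2 starts listed, BAK1 on the minus strand at chr6:33580277-33580526, PMAIP1 on the plus strand at chr18:59899746-59899995 and BCL2L11 on the plus strand at chr2:111120664-111120913.
HRK: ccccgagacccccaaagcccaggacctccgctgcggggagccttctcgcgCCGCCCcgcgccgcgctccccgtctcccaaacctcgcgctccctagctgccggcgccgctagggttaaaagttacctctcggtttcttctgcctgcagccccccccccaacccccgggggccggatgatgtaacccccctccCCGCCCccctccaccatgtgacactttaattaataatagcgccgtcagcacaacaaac
BBC3: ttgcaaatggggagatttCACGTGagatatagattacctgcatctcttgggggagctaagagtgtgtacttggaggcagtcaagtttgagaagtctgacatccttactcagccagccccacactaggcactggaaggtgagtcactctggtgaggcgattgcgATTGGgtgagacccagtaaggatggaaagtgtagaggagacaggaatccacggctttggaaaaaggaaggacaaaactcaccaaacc
BCL2L1: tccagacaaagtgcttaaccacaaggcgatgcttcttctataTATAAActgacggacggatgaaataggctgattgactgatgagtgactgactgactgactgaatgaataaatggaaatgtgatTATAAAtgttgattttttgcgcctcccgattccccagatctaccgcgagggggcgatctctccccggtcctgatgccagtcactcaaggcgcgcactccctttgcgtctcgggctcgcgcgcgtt
BAK1: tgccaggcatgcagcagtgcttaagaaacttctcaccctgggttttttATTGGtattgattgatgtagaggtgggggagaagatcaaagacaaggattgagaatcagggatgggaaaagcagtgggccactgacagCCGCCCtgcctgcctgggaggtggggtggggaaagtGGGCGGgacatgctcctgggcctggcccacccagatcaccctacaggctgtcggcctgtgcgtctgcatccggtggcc
PMAIP1: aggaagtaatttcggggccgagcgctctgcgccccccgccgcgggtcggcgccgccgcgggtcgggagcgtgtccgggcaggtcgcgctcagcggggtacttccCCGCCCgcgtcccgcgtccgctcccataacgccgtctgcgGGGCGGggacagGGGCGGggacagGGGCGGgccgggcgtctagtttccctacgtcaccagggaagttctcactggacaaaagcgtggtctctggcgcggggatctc
BCL2L11: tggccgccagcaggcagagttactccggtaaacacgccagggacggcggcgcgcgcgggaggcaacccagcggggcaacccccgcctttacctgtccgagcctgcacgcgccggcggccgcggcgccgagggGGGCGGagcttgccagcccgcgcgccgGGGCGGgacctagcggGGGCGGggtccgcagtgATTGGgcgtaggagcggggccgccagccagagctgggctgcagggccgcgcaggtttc
Of these windows, PMAIP1 held 4 GC boxes, BCL2L11 held 3, and HRK and BAK1 held 2 each. BBC3 held 1 E-box and 1 CCAAT box and no GC box, at 49.2% G and C, against a median of 58% over all promoters in the table. The BCL2L1 window shown held 2 TATA boxes and no GC box, and that of its other start held none of the 4 motifs. Of 35116 promoters, 42.6% held a GC box, 32.0% a CCAAT box, 10.7% a TATA box and 6.34% an E-box within the same 250 bases. BAX held 4 E-boxes in its window, a number reached by 0.0142% of promoters. BCL2 held none of the 4 motifs, and MCL1 and BIK were not matched in the table. A match of letters is a description and not a site in use.

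Compared per length, as TPM (transcript numbers scaled to a fixed library total), PMAIP1 and MCL1 led in the 28 libraries of the 7 lines and BCL2 and HRK came last. PMAIP1 stood at 171, 236 and 341 TPM (lowest, median and highest of 14 libraries) in treated cells, against 210.0, 296 and 361 TPM in untreated cells. MCL1 stood at 108, 205 and 291 TPM in treated cells, against 178, 262 and 277 TPM in untreated cells. These neighbours overlapped: PMAIP1 was the higher in 9 of 14 treated and 10 of 14 untreated libraries. BAX followed with medians of 111 and 134 TPM in treated and untreated cells, and BAK1 with 62.0 and 107 TPM. BAX was above BAK1 in all 14 treated and all 14 untreated libraries, although the ranges of the genes overlapped.

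BCL2L11, at medians of 24.2 and 25.8 TPM in treated and untreated cells, stood below BAK1 in every one of these libraries. BCL2L1 had medians of 12.9 and 17.6 TPM in treated and untreated cells, BBC3 10.4 and 14.3 TPM, and BIK 16.3 and 10.1 TPM. In untreated cells BIK stood below BBC3 in 14 of 14 libraries, whereas BIK was above BCL2L1 in 10 of 14 treated libraries. HRK, at medians of 2.54 and 3.97 TPM in treated and untreated cells, and BCL2, at 2.26 and 3.36 TPM, overlapped, with HRK the higher in 9 of 14 treated and 12 of 14 untreated libraries. The 10 genes together summed to 497 to 881 TPM in treated libraries and to 773 to 921 TPM in untreated ones. PMAIP1 made up 30.1% to 38.3% of that sum in the treated groups and 27.3% to 40.0% in the untreated groups, and MCL1 23.3% to 36.6% and 24.6% to 31.7%.

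**Figure D1:**
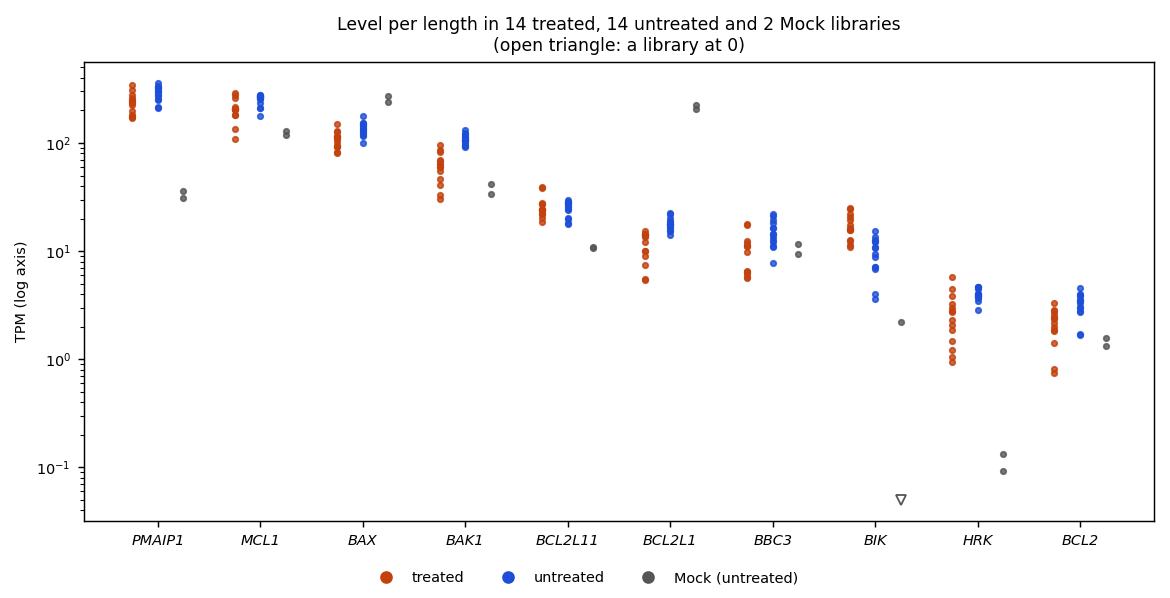
TPM of the 10 BCL2 family genes in single libraries on a log axis, for treated and untreated cells of the 7 lines (14 libraries each) and for Mock (2 libraries). PMAIP1 and MCL1 stand highest in the 7 lines, while Mock has BCL2L1 at 206 and 226 TPM and HRK near 0.1 TPM.

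Change with treatment was tested within each line on counts with edgeR's quasi-likelihood test at a Benjamini-Hochberg adjusted p under 0.05 over 19982 genes, on a scale (TMM) that sets the typical gene to no change. Values in parentheses are log2 fold changes with their standard error, treated over untreated, from n = 2 libraries per group. Overlap of treated and untreated libraries is described for the members alone, with no share over all genes beside it. Of the 10 members, 7 were called in Y1F cells (1 higher and 6 lower), beside 44% of all genes (23.1% higher and 21% lower). In S2A cells 7 were called (3 higher and 4 lower), beside 35.1% of all genes (17% higher and 18.2% lower). In T4V cells 2 were called, both lower, beside 28.9% of all genes (14.8% higher and 14% lower).

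In S5A cells 7 were called (1 higher and 6 lower), beside 49.7% of all genes (25.5% higher and 24.2% lower). In S7A cells 4 were called, all lower, beside 34.9% of all genes (17.8% higher and 17.1% lower). In WT cells 1 was called, lower, beside 4.93% of all genes (3.09% higher and 1.84% lower). In Degron cells 8 were called (1 higher and 7 lower), beside 44.4% of all genes (23.1% higher and 21.4% lower). The members' median was -0.69 in Degron, -0.59 in Y1F, -0.40 in S5A, -0.34 in S2A, -0.28 in S7A, -0.15 in WT and -0.13 in T4V cells, beside medians over all genes of -0.01 to 0.05. Downward calls among the members outnumbered upward ones on this scale, by 4 against 3 in S2A and on 1 call alone in WT cells. In T4V and S7A cells the members called, 2 and 4 of 10, were below or near the shares of all genes, 28.9% and 34.9%. In bulk samples such as these, fewer cells of a type and less RNA per cell cannot be told apart. With 1 library left out at a time, the members called numbered 4 to 6 in S2A, 4 to 6 in S5A, 2 to 3 in S7A, 1 to 3 in T4V and 0 to 1 in WT, and 6 to 7 in Y1F and 6 to 8 in Degron cells. In each line's own 4 libraries, 1 member was called in S7A and 1 in T4V cells. With libraries corrected for GC content, an alternative chosen after the data were seen, 6 members were called in T4V and 4 in WT cells. The counts from fits without 1 library, from a line's own libraries and with GC correction have no share over all genes beside them. They are therefore no result about the members.

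Most members fell further on the scale the authors used. The authors' deposited table gives 9 members lower and 0 higher in Y1F, S5A, S7A and Degron cells, 7 lower and 0 higher in S2A, 4 lower and 0 higher in T4V and 0 of either in WT cells (1 at an unadjusted p under 0.05). Shares and medians over genes in the authors' deposited table are over those with an adjusted p, 15689 to 24185 per line. The share of these genes listed as lower was 49.5% for Y1F, 39.7% for S2A, 32.8% for T4V, 49% for S5A, 47.8% for S7A, 0.0296% for WT and 47.1% for Degron cells. In the authors' deposited table the members' median was -1.54 for Degron cells and -1.47 for Y1F, with -0.80 and -0.82 over its genes with an adjusted p. In the authors' deposited table it was -1.35 for S5A, -1.12 for S7A, -0.86 for S2A, -0.59 for T4V and -0.38 for WT cells, with -0.85, -0.83, -0.54, -0.48 and -0.20 over its genes with an adjusted p. Against TMM, the authors' factors moved the members' log2 fold changes by a median of -0.95 in S5A, -0.87 in Y1F, -0.85 in Degron, -0.82 in S7A, -0.52 in S2A, -0.45 in T4V and -0.23 in WT cells. Scaling by the mRNAs of the mitochondrial genome moved them by -0.74 to -0.22. Directions below are relative to the typical gene. Of the 70 values of treated against untreated cells, 12 turned their sign with the authors' factors and 11 with mitochondrial scaling.

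MCL1 (chr1:150574551-150579738, hg38, minus strand), the most abundant of the survival genes in the 7 lines, fell in Y1F, S5A, S7A and Degron cells. It stood at 301 and 279.6 CPM in treated Y1F cells, against 359 and 411 CPM in untreated Y1F cells (-0.41 ± 0.10, adjusted p = 0.0025). It stood at 318 and 325 CPM in treated S5A cells, against 402 and 377 CPM in untreated S5A cells (-0.28 ± 0.10, adjusted p = 0.028). It stood at 316 and 293 CPM in treated S7A cells, against 425 and 399.9 CPM in untreated S7A cells (-0.44 ± 0.10, adjusted p = 0.0020). Treated and untreated libraries did not overlap in these 3 lines. The lowest values of MCL1 among the 7 lines were in treated Degron cells, at 216 and 184 CPM, against 274 and 308 CPM in untreated Degron cells (-0.54 ± 0.10, adjusted p = 1.8e-04).

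In S2A cells, where other survival genes fell, MCL1 was at 468 and 487 CPM treated, against 412 and 414 CPM untreated (0.21 ± 0.10, adjusted p = 0.11). It was at 338 and 329 CPM in treated T4V cells, against 331 and 378 CPM in untreated T4V cells (-0.09 ± 0.10, adjusted p = 0.54). It was at 375 and 321 CPM in treated WT cells, against 379.7 and 392 CPM in untreated WT cells (-0.15 ± 0.10, adjusted p = 0.46). None of these 3 passed the test in the fit of all libraries, and the T4V libraries overlapped. The authors' deposited table lists MCL1 as lower in S2A (-0.31, adjusted p = 0.049) and T4V cells (-0.56, adjusted p = 0.021), and not in WT cells (-0.40). In the S2A line's own 4 libraries edgeR called MCL1 higher (0.27, adjusted p = 1.2e-04). Scaled to the mRNAs of the mitochondrial genome, MCL1 was at -0.29 in S2A cells (adjusted p = 0.032), and with the authors' factors at -0.31 (adjusted p = 0.16), so that its sign there depends on the scaling. The S5A call was lost without untreated replicate 1 (-0.24, adjusted p = 0.14), treated replicate 1 (-0.33, adjusted p = 0.069) or treated replicate 2 (-0.36, adjusted p = 0.053).

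BCL2 (chr18:63123346-63320128, minus strand) was low in all groups and fell in 5 lines. Its levels were 7.75 and 7.40 CPM in treated Y1F cells, against 12.2 and 13.7 CPM in untreated ones (-0.77 ± 0.14, adjusted p = 1.8e-04). They were 2.77 and 2.54 CPM in treated S2A cells, against 5.37 and 5.21 CPM in untreated ones (-0.99 ± 0.18, adjusted p = 2.4e-04), the lowest of the 7 lines. They were 7.39 and 5.70 CPM in treated S5A cells, against 11.3 and 10.3 CPM in untreated ones (-0.74 ± 0.15, adjusted p = 3.1e-04). The same held in S7A and Degron cells, with no overlap of treated and untreated libraries. The levels were 6.80 and 6.41 CPM in treated S7A cells, against 8.63 and 9.25 CPM in untreated ones (-0.44 ± 0.15, adjusted p = 0.027), and this call was lost without any 1 of the 4 libraries (-0.51 to -0.39, adjusted p = 0.054 to 0.15). They were 5.88 and 4.86 CPM in treated Degron cells, against 9.36 and 9.77 CPM in untreated ones (-0.83 ± 0.15, adjusted p = 1.1e-04). In T4V cells BCL2 stood at 9.67 and 8.06 CPM treated, against 8.83 and 10.4 CPM untreated, which overlapped (-0.12 ± 0.15, adjusted p = 0.58). In WT cells it stood at 9.69 and 8.88 CPM treated, against 10.4 and 11.53 CPM untreated (-0.24 ± 0.14, adjusted p = 0.38).

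BCL2L1 (chr20:31664452-31723989, minus strand), which encodes BCL-xL, fell in Y1F, S2A, S7A and Degron cells. It stood at 8.72 and 7.65 CPM in treated Y1F cells, against 19.6 and 17.5 CPM in untreated ones (-1.17 ± 0.17, adjusted p = 1.7e-05). It stood at 17.3 and 15.8 CPM in treated S2A cells, against 23.4 and 22.5 CPM in untreated ones (-0.47 ± 0.16, adjusted p = 0.029). It stood at 10.4 and 13.2 CPM in treated S7A cells, against 18.4 and 20.3 CPM in untreated ones (-0.71 ± 0.17, adjusted p = 0.0026). The fall was deepest in Degron cells, where treated libraries were at 5.94 and 6.13 CPM, against 18.2 and 14.02 CPM in untreated ones (-1.42 ± 0.18, adjusted p = 1.8e-06).

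BCL2L1 did not pass in the other 3 lines. It was at 15.5 and 15.2 CPM in treated T4V cells, against 18.6 and 15.3 CPM in untreated ones, which overlapped (-0.15 ± 0.17, adjusted p = 0.55). It was at 14.9 and 14.4 CPM in treated S5A cells, against 18.6 and 15.4 CPM in untreated ones (-0.22 ± 0.17, adjusted p = 0.30). Its treated WT libraries stood apart from each other, at 9.69 and 14.9 CPM, against 16.7 and 16.2 CPM in untreated WT cells (-0.41 ± 0.17, adjusted p = 0.19), and it was called there without treated replicate 2 (-0.76, adjusted p = 0.038). The S2A call was lost without untreated replicate 1 (-0.45, adjusted p = 0.12), untreated replicate 2 (-0.53, adjusted p = 0.055) or treated replicate 2 (-0.44, adjusted p = 0.12). On the authors' factors BCL2L1 was lower in the T4V line (-0.60) and the S5A line (-1.17) too.

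BAX and BAK1, the effectors, differed from each other. BAK1 (chr6:33572547-33580293, minus strand) fell in the 5 mutant lines and in Degron cells, most in S5A. It stood at 28.2 and 32.5 CPM in treated Y1F cells, against 62.8 and 53.0 CPM in untreated ones (-0.94 ± 0.17, adjusted p = 1.8e-04). It stood at 41.7 and 38.0 CPM in treated S2A cells, against 66.2 and 57.7 CPM in untreated ones (-0.64 ± 0.17, adjusted p = 0.0062). It stood at 40.3 and 34.3 CPM in treated T4V cells, against 73.0 and 54.0 CPM in untreated ones (-0.77 ± 0.17, adjusted p = 0.0021). The S5A line held the lowest BAK1 levels of all groups. Its treated libraries were at 18.2 and 16.4 CPM, against 57.5 and 56.7 CPM in the untreated ones (-1.72 ± 0.18, adjusted p = 1.2e-07). In S7A cells BAK1 stood at 35.5 and 49.0 CPM treated, against 58.2 and 66.0 CPM untreated (-0.56 ± 0.17, adjusted p = 0.015).

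Treated Degron cells had BAK1 at 23.2 and 27.9 CPM, against 51.8 and 50.5 CPM in untreated ones (-1.003 ± 0.17, adjusted p = 8.1e-05). In WT cells it stood at 42.8 and 53.0 CPM treated, against 59.1 and 47.7 CPM untreated, which overlapped (-0.16 ± 0.17, adjusted p = 0.67). BAK1 was thus called in each line but WT. The S2A call was lost without untreated replicate 1 (-0.54, adjusted p = 0.068), and the S7A call without untreated replicate 2 (-0.47, adjusted p = 0.10) or treated replicate 1 (-0.37, adjusted p = 0.13). In the S7A line's own 4 libraries BAK1 was at -0.52 (adjusted p = 0.088).

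BAX (chr19:48954815-48961798, plus strand), the more abundant effector, fell in S5A and T4V cells. It stood at 52.5 and 51.9 CPM in treated S5A cells, against 83.3 and 86.0 CPM in untreated ones (-0.70 ± 0.18, adjusted p = 0.0035). It stood at 66.2 and 67.5 CPM in treated T4V cells, against 115 and 74.6 CPM in untreated ones (-0.50 ± 0.18, adjusted p = 0.043). That call rested on the untreated library at 115 CPM, and was lost without it, untreated replicate 1 (-0.23, adjusted p = 0.42), and also without treated replicate 1 (-0.53, adjusted p = 0.11) or treated replicate 2 (-0.56, adjusted p = 0.097). In Degron cells BAX stood at 60.5 and 82.3 CPM treated, against 76.0 and 61.2 CPM untreated, which overlapped (0.06 ± 0.18, adjusted p = 0.83). BAX on the authors' factors was at -0.81 in Degron cells (adjusted p = 7.9e-04), and with mitochondrial scaling at -0.42 (adjusted p = 0.098). In WT cells it stood at 67.9 and 96.0 CPM treated, against 81.0 and 77.2 CPM untreated (0.05 ± 0.18, adjusted p = 0.93), a value that was -0.14 with the authors' factors and -0.15 with mitochondrial scaling. Y1F, S2A and S7A cells had values of -0.31, -0.20 and -0.25, with adjusted p = 0.19, 0.42 and 0.31.

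HRK (chr12:116856144-116881441, minus strand), a BH3-only gene, showed the largest falls of the 10 members in Y1F and Degron cells. It stood at 1.95 and 2.47 CPM in treated Y1F cells, against 6.12 and 4.64 CPM in untreated ones (-1.31 ± 0.22, adjusted p = 5.1e-05). It stood at 3.42 and 3.82 CPM in treated S2A cells, against 6.58 and 6.68 CPM in untreated ones (-0.87 ± 0.20, adjusted p = 0.0017). It stood at 1.65 and 1.97 CPM in treated Degron cells, against 7.63 and 6.09 CPM in untreated ones (-1.92 ± 0.21, adjusted p = 2.4e-07). Treated and untreated libraries of these lines did not overlap, and counts were 27 to 120 per library in the 28 libraries of the 7 lines. WT cells had HRK at 9.11 and 7.57 CPM treated, against 6.41 and 7.50 CPM untreated (0.26 ± 0.17, adjusted p = 0.45).

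HRK was called lower in S5A cells as well, at 4.70 and 4.67 CPM treated, against 7.56 and 5.65 CPM untreated (-0.51 ± 0.19, adjusted p = 0.031). This call was lost without untreated replicate 1 (-0.28, adjusted p = 0.36), treated replicate 1 (-0.58, adjusted p = 0.059) or treated replicate 2 (-0.56, adjusted p = 0.074). In T4V cells it stood at 5.51 and 4.11 CPM treated, against 6.86 and 6.18 CPM untreated (-0.45 ± 0.19, adjusted p = 0.081), and passed without treated replicate 1 (-0.71, adjusted p = 0.042). In S7A cells it stood at 6.58 and 5.78 CPM treated, against 6.79 and 7.60 CPM untreated (-0.22 ± 0.18, adjusted p = 0.38).

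BBC3 (chr19:47220822-47232766, minus strand), which encodes PUMA, fell in Y1F and Degron cells. It stood at 4.72 and 5.10 CPM in treated Y1F cells, against 10.5 and 8.51 CPM in untreated ones (-0.96 ± 0.28, adjusted p = 0.0086). It stood at 4.59 and 5.61 CPM in treated Degron cells, against 17.2 and 13.7 CPM in untreated ones (-1.60 ± 0.26, adjusted p = 4.6e-05). The Y1F call was lost without untreated replicate 1 (-0.86, adjusted p = 0.052). The longest transcript of BBC3 is richer in G and C than that of 99.5% of the 19035 tested genes with a value. The replicates of BBC3 stood far apart in several groups. Per 10 percentage points of transcript GC content, log2 levels of a library deviated from the mean of all libraries by -0.14 and 0.25 in treated WT cells and by 0.063 and 0.44 in treated S7A cells. Its 2 treated WT libraries were at 8.20 and 13.9 CPM, against 10.8 and 9.03 CPM in untreated WT cells (0.17 ± 0.25, adjusted p = 0.78), a value that was -0.012 with the authors' factors, -0.036 with mitochondrial scaling and -0.10 with GC correction. Its treated S7A libraries were at 8.92 and 14.5 CPM, against 12.98 and 16.2 CPM in untreated S7A cells (-0.32 ± 0.25, adjusted p = 0.34).

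S2A cells had BBC3 at 5.30 and 4.92 CPM treated, against 6.15 and 8.55 CPM untreated (-0.53 ± 0.29, adjusted p = 0.17). T4V cells had it at 8.41 and 9.22 CPM treated, against 15.6 and 9.45 CPM untreated (-0.51 ± 0.26, adjusted p = 0.15), and it passed there without untreated replicate 2 (-0.82, adjusted p = 0.030). S5A cells had it at 9.40 and 9.56 CPM treated, against 12.4 and 10.8 CPM untreated (-0.30 ± 0.26, adjusted p = 0.36). These 3 did not pass in the fit of all libraries. No treated library reached an untreated one in any of them, which is no test. In the S2A line's own 4 libraries BBC3 passed (-0.47, adjusted p = 0.024). The authors' deposited table lists BBC3 as lower in S2A (-1.06, adjusted p = 0.0070), T4V (-0.94, adjusted p = 0.013), S5A (-1.25, adjusted p = 6.1e-07) and S7A cells (-1.17, adjusted p = 9.5e-04), and not in WT cells (-0.0033). With libraries corrected for GC content, BBC3 was at -0.65 in S2A, -0.37 in T4V, -0.34 in S5A, -0.74 in S7A and -0.10 in WT cells, and passed in the first 4.

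PMAIP1 (chr18:59899948-59904306, plus strand), which encodes NOXA, was called higher in S2A cells and lower in S5A, WT and Degron cells. It stood at 184 and 200.2 CPM in treated S2A cells, against 134 and 147 CPM in untreated ones (0.45 ± 0.15, adjusted p = 0.024). It stood at 93.7 and 97.6 CPM in treated S5A cells, against 166 and 157 CPM in untreated ones (-0.76 ± 0.15, adjusted p = 2.8e-04). Treated libraries thus lay above all untreated ones in S2A and below all of them in S5A cells. The S2A call was lost without any 1 of the 4 libraries (0.35 to 0.48, adjusted p = 0.085 to 0.21), and the value was -0.05 with mitochondrial scaling (adjusted p = 0.77) and -0.07 with the authors' factors (adjusted p = 0.81).

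PMAIP1 was the 1 member called in WT cells, at 132 and 107 CPM treated, against 172 and 185 CPM untreated (-0.58 ± 0.15, adjusted p = 0.026). That call was lost without untreated replicate 1 (-0.64, adjusted p = 0.095), untreated replicate 2 (-0.52, adjusted p = 0.20) or treated replicate 2 (-0.44, adjusted p = 0.24), and in the WT line's own 4 libraries (-0.58, adjusted p = 0.28). Treated Degron cells had it at 126 and 105 CPM, against 165 and 168 CPM in untreated ones (-0.53 ± 0.15, adjusted p = 0.0068), a call lost without treated replicate 2 (-0.44, adjusted p = 0.079). PMAIP1 was thus called lower both with a wild-type complement and without one. Y1F cells had it at 142 and 125 CPM treated, against 146 and 172 CPM untreated (-0.25 ± 0.15, adjusted p = 0.18). T4V cells had it at 148 and 140.2 CPM treated, against 115 and 150.0 CPM untreated, and S7A cells at 130.02 and 96.2 CPM treated, against 137 and 113 CPM untreated. The T4V (0.12 ± 0.15, adjusted p = 0.59) and S7A libraries (-0.14 ± 0.15, adjusted p = 0.50) overlapped. With mitochondrial scaling PMAIP1 was at -0.46 in T4V cells (adjusted p = 0.0069), and with the authors' factors at -0.35 (adjusted p = 0.19).

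BCL2L11, which encodes BIM, rose in S2A and S5A cells on the TMM scale, although other scalings turned its sign in S5A, T4V and Degron cells. It stood at 70.7 and 70.0 CPM in treated S2A cells, the highest of all groups, against 46.0 and 45.8 CPM in untreated ones (0.62 ± 0.10, adjusted p = 8.0e-05). It stood at 40.4 and 39.1 CPM in treated S5A cells, against 32.0 and 29.05 CPM in untreated ones (0.38 ± 0.10, adjusted p = 0.0045). The S5A call was lost without untreated replicate 2 (0.24, adjusted p = 0.19), treated replicate 1 (0.29, adjusted p = 0.12) or treated replicate 2 (0.34, adjusted p = 0.067). In S5A cells BCL2L11 was at -0.36 with mitochondrial scaling (adjusted p = 0.010) and at -0.57 with the authors' factors (adjusted p = 0.011), and in S2A cells at 0.12 and 0.10.

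BCL2L11 stood at 37.7 and 34.4 CPM in treated Degron cells, against 30.002 and 31.8 CPM in untreated ones (0.22 ± 0.10, adjusted p = 0.088), and at -0.63 with the authors' factors (adjusted p = 0.0054). WT cells had it at 37.5 and 33.7 CPM treated, against 40.7 and 45.1 CPM untreated (-0.27 ± 0.10, adjusted p = 0.15). Y1F cells had it at 38.0 and 36.8 CPM treated, against 39.2 and 45.5 CPM untreated (-0.18 ± 0.10, adjusted p = 0.17). T4V and S7A cells had values of 0.15 (adjusted p = 0.27) and -0.01 (adjusted p = 0.98). With mitochondrial scaling BCL2L11 was called lower in T4V (-0.43, adjusted p = 0.0042), Y1F (-0.53), S7A (-0.40) and WT cells (-0.49). BCL2L11 (chr2:111119378-111168447, plus strand) lies within the lincRNA MIR4435-2HG on the other strand, which reached 44.0 CPM. Whether the counting used strand is not given in the sources used here, so reads of the pair cannot be told apart.

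BIK (chr22:43110748-43129712, plus strand), a BH3-only gene of the endoplasmic reticulum, was the only member with a value above 0 in all 7 lines on the TMM scale, although the authors' factors turned its sign in S5A, S7A and Degron cells and mitochondrial scaling in T4V and S5A cells. It stood at 5.54 and 5.75 CPM in treated Y1F cells, against 2.20 and 1.55 CPM in untreated ones (1.58 ± 0.30, adjusted p = 2.4e-04). It stood at 2.94 and 2.80 CPM in treated S2A cells, against 0.849 and 0.935 CPM in untreated ones (1.67 ± 0.38, adjusted p = 0.0016). It stood at 3.92 and 4.51 CPM in treated Degron cells, against 2.99 and 2.00 CPM in untreated ones (0.74 ± 0.28, adjusted p = 0.040). The Degron call was lost without untreated replicate 2 (0.49, adjusted p = 0.28), treated replicate 1 (0.76, adjusted p = 0.075) or treated replicate 2 (0.59, adjusted p = 0.18). It was -0.11 on the authors' factors (adjusted p = 0.76).

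In the other 4 lines BIK did not pass. Both treated libraries were above both untreated ones in each on the TMM scale, which is no test. Its levels were 3.19 and 3.10 CPM in treated T4V cells, against 2.54 and 1.60 CPM in untreated ones (0.59 ± 0.32, adjusted p = 0.18). They were 3.69 and 4.44 CPM in treated S5A cells, against 2.46 and 2.79 CPM in untreated ones (0.64 ± 0.29, adjusted p = 0.073). They were 4.91 and 5.46 CPM in treated S7A cells, against 3.16 and 3.52 CPM in untreated ones (0.63 ± 0.27, adjusted p = 0.075). BIK in WT cells moved as much as these, at 3.48 and 3.92 CPM treated, against 2.704 and 1.60 CPM untreated (0.77 ± 0.30, adjusted p = 0.15). On the authors' factors BIK was at -0.31 in S5A and -0.19 in S7A cells, and stayed at 0.71 in Y1F and 1.15 in S2A cells, both called (scaling by mitochondrial mRNAs gave 1.23 and 1.18, both called). Its counts were 12 to 108 per library in the 7 lines.

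**Figure D2:**
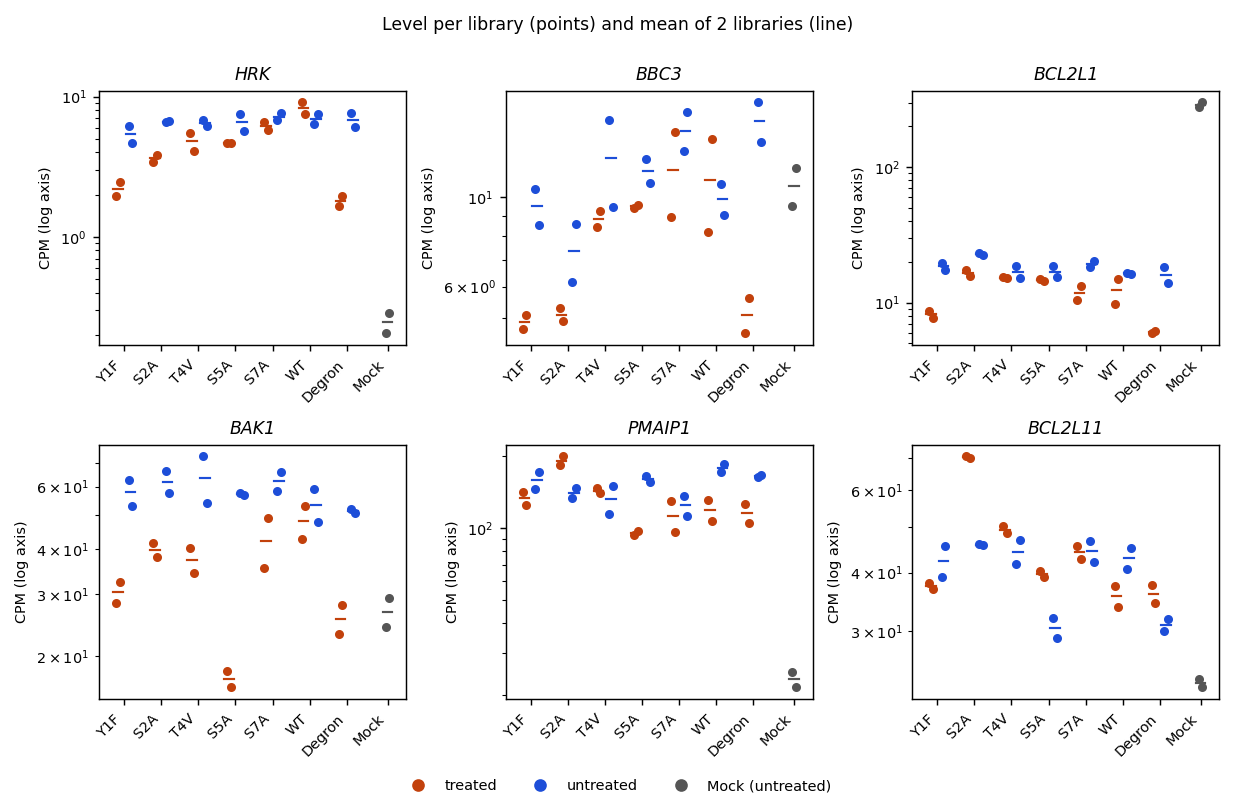
CPM of 6 members in each library on a log axis, treated left of untreated in each line, with Mock at the right; points are libraries and lines the means of 2. HRK, BBC3 and BCL2L1 are low in treated Y1F and Degron cells, BAK1 is lowest in treated S5A cells at 18.2 and 16.4 CPM, and BCL2L11 is highest in treated S2A cells at 70.7 and 70.0 CPM.

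**Figure D3:**
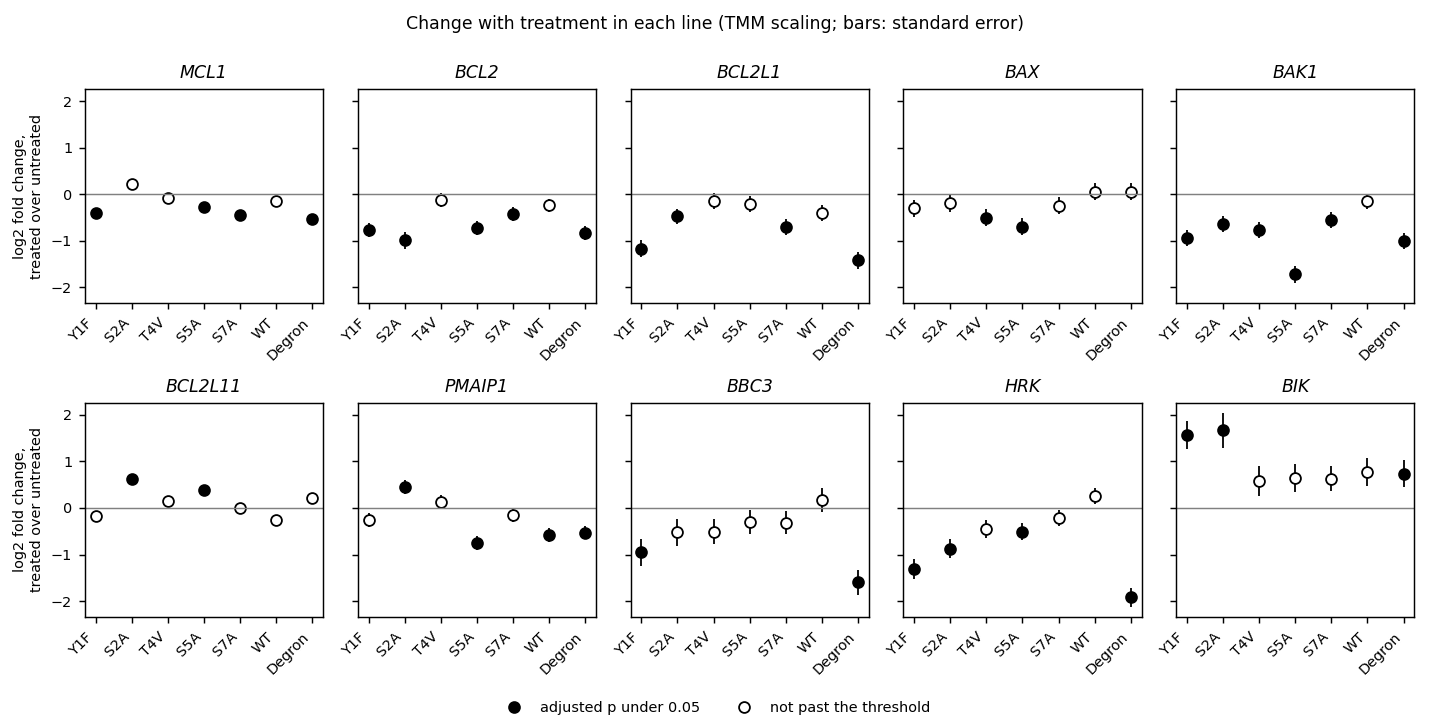
Log2 fold change, treated over untreated, of each member in the 7 lines, with standard errors; filled points have an adjusted p under 0.05. BAK1 is filled in all lines but WT, BCL2 in 5 lines, and in WT cells PMAIP1 alone is filled.

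Differences between lines were tested as interactions. The first asked how the change in WT cells differed from that in Degron cells, which have no complement, and 5 of 10 members were called, 4 with a positive difference, beside 12% of all genes. Of the BH3-only genes, HRK differed by 2.18 ± 0.27 (0.26 in WT and -1.92 in Degron cells, adjusted p = 1.7e-05), the largest difference among the members. BBC3 differed by 1.77 ± 0.37 (0.17 in WT and -1.60 in Degron cells, adjusted p = 0.0026). The survival gene BCL2L1 differed by 1.01 ± 0.25 (-0.41 and -1.42 in WT and Degron cells, adjusted p = 0.0088), and the effector BAK1 by 0.85 ± 0.24 (-0.16 and -1.003, adjusted p = 0.025). These 4 fell less in WT than in Degron cells or did not fall.

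BCL2L11 differed the other way, by -0.49 ± 0.15 (-0.27 in WT and 0.22 in Degron cells, adjusted p = 0.032). With the authors' factors this difference was 0.11 (adjusted p = 0.79). It was also lost without untreated Degron replicate 1 (-0.44), untreated Degron replicate 2 (-0.53), treated Degron replicate 1 (-0.38), untreated WT replicate 2 (-0.40) or treated WT replicate 2 (-0.41), with adjusted p = 0.058 to 0.22. PMAIP1 was near 0 in this comparison, at -0.05 ± 0.21 (adjusted p = 0.93), as was BAX at 0.00 ± 0.26. MCL1 was at 0.39 ± 0.14 (adjusted p = 0.077) and BCL2 at 0.59 ± 0.20 (adjusted p = 0.065), and both passed with the authors' factors (1.00 and 1.19) and with mitochondrial scaling (0.66 and 0.86). MCL1 passed without treated Degron replicate 1 (0.56, adjusted p = 0.040) or treated WT replicate 2 (0.51, adjusted p = 0.038), and BCL2 without treated Degron replicate 1 (0.77, adjusted p = 0.050).

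The calls of BCL2L1 and BAK1 against Degron cells depended on single libraries. BCL2L1 was at 0.82 without untreated Degron replicate 1 (adjusted p = 0.071) and at 0.66 without treated WT replicate 2 (adjusted p = 0.099). BAK1 was at 0.84 without untreated Degron replicate 1, at 0.87 without untreated Degron replicate 2, at 0.76 without treated Degron replicate 1, at 0.71 without untreated WT replicate 2 and at 0.69 without treated WT replicate 2, with adjusted p = 0.054 to 0.13. HRK and BBC3 remained called without any single library.

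Each mutant's change was then set against that of WT cells, which all 5 comparisons share. In Y1F cells 2 of 10 members were called, both lower, beside 9.73% of all genes. HRK differed by -1.57 ± 0.28 (-1.31 in Y1F and 0.26 in WT cells, adjusted p = 0.0010). BAK1 differed by -0.78 ± 0.24 (-0.94 and -0.16, adjusted p = 0.045), which was lost without untreated WT replicate 2 (-0.65), treated WT replicate 2 (-0.62), untreated Y1F replicate 1 (-0.68) or treated Y1F replicate 1 (-0.68), with adjusted p = 0.14 to 0.19. BCL2L1, at -0.76 ± 0.24, and BBC3, at -1.13 ± 0.38, had adjusted p = 0.0502 and 0.064. Both passed without treated WT replicate 1 (-1.04, adjusted p = 0.0054, and -1.46, adjusted p = 0.014), and BCL2L1 without untreated Y1F replicate 2 (-0.85, adjusted p = 0.049). With the authors' factors 7 members were called in this comparison, all lower, beside 34.2% of all genes called lower on that scale.

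In S2A cells 3 of 10 members differed from WT, beside 7.53% of all genes. The BH3-only genes BCL2L11 and PMAIP1 were higher relative to WT, by 0.88 ± 0.14 (0.62 in S2A and -0.27 in WT cells, adjusted p = 7.3e-04) and by 1.03 ± 0.21 (0.45 in S2A and -0.58 in WT cells, adjusted p = 0.0046). HRK was lower by -1.13 ± 0.26 (-0.87 in S2A and 0.26 in WT cells, adjusted p = 0.011). BH3-only genes of S2A cells thus moved both ways against WT. The call of HRK was lost without untreated WT replicate 1 (-1.02, adjusted p = 0.063) or treated S2A replicate 1 (-1.05, adjusted p = 0.062), while those of BCL2L11 and PMAIP1 held without any single library. On the authors' factors BCL2L11 was at 0.62 and PMAIP1 at 0.77, neither called, and HRK at -1.39, called. BCL2, at -0.75 ± 0.23, had adjusted p = 0.052.

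In S5A cells 4 of 10 members differed from WT, beside 18.1% of all genes. BAK1 differed by -1.57 ± 0.25 (-1.72 in S5A and -0.16 in WT cells, adjusted p = 1.5e-04) and BAX by -0.75 ± 0.26 (-0.70 and 0.05, adjusted p = 0.048), so that both effectors were lower relative to WT. HRK differed by -0.76 ± 0.26 (-0.51 in S5A and 0.26 in WT cells, adjusted p = 0.043) and BCL2L11 by 0.65 ± 0.15 (0.38 in S5A and -0.27 in WT cells, adjusted p = 0.0039). BAK1 held without any single library, at -1.74 to -1.41 in those fits. BAX kept its call without treated WT replicate 1 (-0.99), and was at -0.79 to -0.49 with adjusted p = 0.078 to 0.26 without any 1 of the other 7 libraries. HRK was lost without untreated WT replicate 1 (-0.66), untreated WT replicate 2 (-0.90), treated WT replicate 1 (-0.65), untreated S5A replicate 1 (-0.54), treated S5A replicate 1 (-0.80) or treated S5A replicate 2 (-0.79), with adjusted p = 0.052 to 0.25. BCL2L11 was lost without untreated S5A replicate 2 (0.54, adjusted p = 0.056) and was at -0.05 on the authors' factors (adjusted p = 0.91).

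In T4V cells 0 of 10 members differed from WT by edgeR's test, beside 3.7% of all genes, with 5 at an unadjusted p under 0.05 and 1 called by DESeq2. PMAIP1 came nearest, at 0.70 ± 0.21 (adjusted p = 0.068), and passed without treated WT replicate 1 (0.85, adjusted p = 0.029) or untreated T4V replicate 2 (0.90, adjusted p = 0.019). Without untreated T4V replicate 2, BAX at -0.84 (adjusted p = 0.041) and BAK1 at -0.82 (adjusted p = 0.047) passed too. In S7A cells 0 of 10 members differed from WT by edgeR's test, beside 0.821% of all genes, with 0 at an unadjusted p under 0.05 and 0 called by DESeq2. Using the authors' factors, 6 members were lower in S7A than in WT cells, beside 21.5% of all genes, and with GC correction 1 was higher and 4 were lower, beside 3.97% and 8.65% of all genes.

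**Figure D4:**
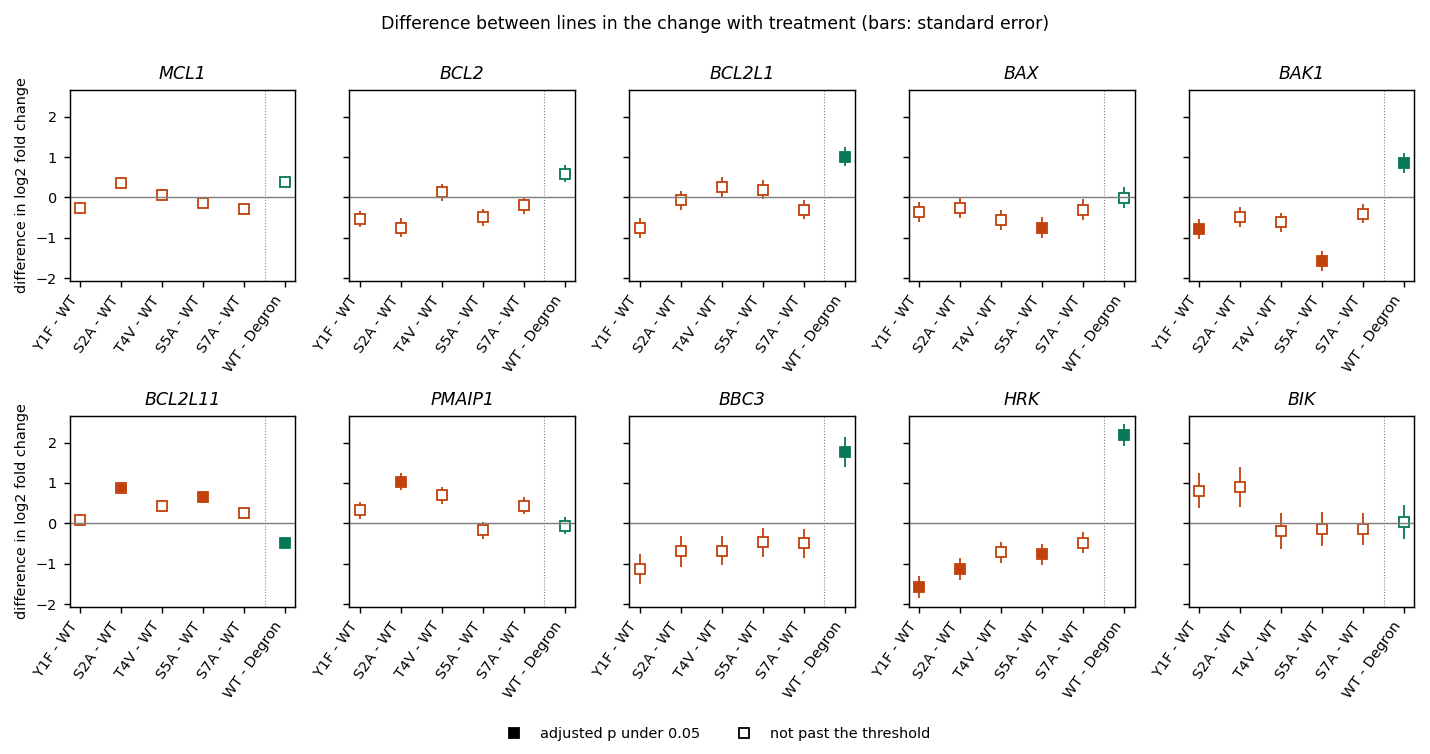
Difference in log2 fold change of each member between a mutant line and WT (left of the dotted line) and between WT and Degron cells (right), with standard errors; filled squares have an adjusted p under 0.05. HRK is filled for Y1F, S2A and S5A against WT and reaches 2.18 for WT against Degron, and S5A against WT is -1.57 for BAK1.

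Ratios of counts between 2 members of the same library do not depend on its scaling. They were not corrected for GC content. Transcript GC content was 37.2% for PMAIP1, 45.1% for MCL1, 56.9% for BCL2L1, 58.9% for BAX and 69.7% for BBC3. MCL1 to BCL2L1 was at log2 ratios of 5.11 and 5.19 in treated Y1F cells, against 4.19 and 4.56 in untreated ones. It was at 4.76 and 4.95 in treated S2A cells, against 4.14 and 4.20 in untreated ones, and at 5.18 and 4.90 in treated Degron cells, against 3.91 and 4.46 in untreated ones. MCL1 thus gained on BCL2L1 in these 3 lines without overlap of the libraries, by 0.77, 0.68 and 0.86. In T4V, S5A, S7A and WT cells the libraries of the 2 conditions overlapped, with mean differences of -0.07 to 0.30.

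PMAIP1 to MCL1 moved in different directions across the lines. The log2 ratio was at -1.76 and -1.74 in treated S5A cells, against -1.27 and -1.27 in untreated ones, and at -1.51 and -1.58 in treated WT cells, against -1.14 and -1.08 in untreated ones. It was higher in treated than in untreated Y1F, S2A, T4V and S7A cells, by 0.15, 0.24, 0.22 and 0.29, with no overlap. PMAIP1 lost ground to MCL1 in S5A and WT cells and gained ground in the other 4 complemented lines. The separation was narrow in S7A cells, at -1.28 and -1.60 treated, against -1.63 and -1.83 untreated. In Degron cells the ratios overlapped, at -0.78 and -0.81 treated, against -0.73 and -0.88 untreated. MCL1 to BAX was lower by 0.59 in treated Degron cells (1.84 and 1.16 treated, against 1.85 and 2.33 untreated) and by 0.19 in treated S7A cells, and higher by 0.41 and 0.42 in treated S2A and S5A cells, with overlap in the other 3 lines. Library deviations with GC content, as for BBC3 above, were -0.039 and 0.28 in treated Degron cells, against 0.22 and 0.025 in untreated ones. In both groups the library with the higher deviation had the lower MCL1 to BAX ratio. This order held in the other groups, except untreated S2A, treated S5A and untreated S7A cells. Whether GC content accounts for changes in the ratios was not tested. BBC3 to BCL2L1 was higher by 0.56, 0.37 and 0.24 in treated WT, S7A and Y1F cells and lower by 0.32, 0.19 and 0.085 in treated T4V, Degron and S5A cells, with overlap in S2A cells. No test was run on these ratios, and the overlap of 2 against 2 libraries has no share over other gene pairs beside it.

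**Figure D5:**
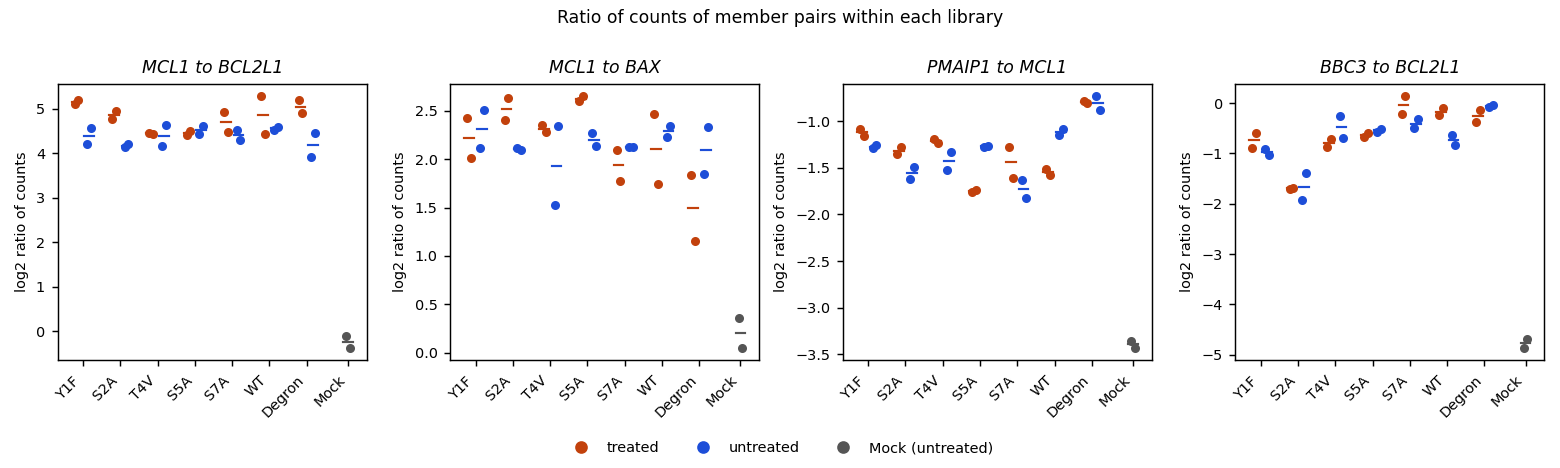
Log2 ratio of the counts of 4 pairs of members within each library, treated left of untreated in each line, with Mock at the right; points are libraries and lines the means of 2. MCL1 to BCL2L1 is 0.77, 0.68 and 0.86 higher in treated than in untreated Y1F, S2A and Degron cells, and Mock is far lower in all 4 ratios.

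Untreated complemented lines were set against untreated Degron cells, which these 6 comparisons share. In untreated Y1F cells 3 of 10 members were called, all higher, beside 11% of all genes. In untreated S2A cells 7 were called (4 higher and 3 lower), beside 36.3% of all genes, and in untreated T4V and S5A cells 1 each, higher, beside 13.3% and 12.7% of all genes. In untreated S7A cells 2 were called, both higher, beside 18.7% of all genes, and in untreated WT cells 2, both higher, beside 10.2% of all genes. MCL1 was higher than in Degron cells in Y1F (0.40), S2A (0.51), S5A (0.42), S7A (0.50) and WT cells (0.41), each ± 0.10 (adjusted p = 4.5e-04 to 0.012). T4V cells had a MCL1 value of 0.29 (adjusted p = 0.066). BCL2L11 was higher in Y1F (0.45), S2A (0.57), T4V (0.52), S7A (0.52) and WT cells (0.47), each ± 0.10 (adjusted p = 1.6e-04 to 0.0068), and not in S5A cells (-0.02).

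Untreated S2A cells had the most members called against untreated Degron cells. BCL2 was at 5.37 and 5.21 CPM in untreated S2A cells, against 9.36 and 9.77 CPM in untreated Degron cells (-0.85 ± 0.15, adjusted p = 1.3e-04). BIK was lower in S2A cells, at -1.49 ± 0.38 (adjusted p = 0.0035), and BBC3 at -1.07 ± 0.26 (adjusted p = 0.0023). BCL2L1 was higher in S2A cells by 0.51 ± 0.16 (adjusted p = 0.018) and BAX by 0.48 ± 0.18 (adjusted p = 0.044). BAX had similar values in untreated T4V (0.47) and S7A cells (0.46), and BBC3 was at -0.71 in Y1F and -0.64 in WT cells, none of them called. Untreated complemented lines were not tested against each other. These lines thus entered treatment at different levels of some members. Several of these calls were lost without single libraries. Without untreated Degron replicate 1, MCL1 was no longer called in WT, Y1F or S5A cells (0.32, 0.32 and 0.34, adjusted p = 0.14 to 0.20) and BCL2L11 not in WT or Y1F cells (0.43 and 0.41, adjusted p = 0.095 and 0.0998). The call of MCL1 was also lost without untreated WT replicate 1 or 2 (0.43 and 0.38), untreated Y1F replicate 2 (0.30) and untreated S5A replicate 1 (0.37), with adjusted p = 0.063 to 0.24. That of BCL2L11 was also lost without untreated WT replicate 2 (0.39, adjusted p = 0.11) and untreated Y1F replicate 2 (0.34, adjusted p = 0.18). The call of BCL2 in Y1F cells was lost without any 1 of the 4 libraries (0.36 to 0.54, adjusted p = 0.078 to 0.34). In S2A cells those of BCL2L1 (0.34 to 0.50) and BAX (0.33 to 0.49) were lost without untreated Degron replicate 2 or either untreated S2A library, with adjusted p = 0.069 to 0.30. The S2A call of BBC3 was lost without untreated S2A replicate 1 (-0.86, adjusted p = 0.051) and that of BIK without untreated Degron replicate 1 (-1.16, adjusted p = 0.082). In T4V cells MCL1 passed without untreated T4V replicate 1 (0.42, adjusted p = 0.032) and BAX without untreated T4V replicate 2 (0.75, adjusted p = 0.015).

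Untreated Degron cells differed from Mock in 9 of 10 members, 7 higher and 2 lower, beside 64.8% of all genes. This comparison is between libraries that differ in the A549 markers and in CDKN2A and MTAP, so line and cell of origin cannot be told apart in it. BCL2L1 stood at 18.2 and 14.02 CPM in untreated Degron cells, against 277 and 302 CPM in Mock (-4.16 ± 0.17, adjusted p = 3.2e-15). PMAIP1 stood at 165 and 168 CPM in untreated Degron cells, against 25.1 and 21.5 CPM in Mock (2.83 ± 0.17, adjusted p = 1.7e-12). BAX stood at 76.0 and 61.2 CPM in untreated Degron cells, against 200.3 and 225 CPM in Mock (-1.63 ± 0.18, adjusted p = 8.3e-08). HRK stood at 7.63 and 6.09 CPM in untreated Degron cells, against 0.205 and 0.287 CPM in Mock, which rest on 2 and 3 counts.

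BAK1 stood at 51.8 and 50.5 CPM in untreated Degron cells, against 24.2 and 29.1 CPM in Mock (0.94 ± 0.18, adjusted p = 8.1e-05). BIK stood at 2.99 and 2.00 CPM in untreated Degron cells, against 0 and 0.670 CPM in Mock, which rest on 0 and 7 counts. MCL1, BCL2 and BCL2L11 were higher in untreated Degron cells by 0.25, 0.72 and 0.41 (adjusted p = 0.036, 3.8e-04 and 0.0023), and BBC3 at 0.54 ± 0.26 did not pass (adjusted p = 0.072). The call of MCL1 was lost without Mock replicate 2 (0.19, adjusted p = 0.26) or untreated Degron replicate 2 (0.18, adjusted p = 0.23). BCL2L1 made up 1.05% to 2.57% of the members' summed TPM in the groups of the 7 lines and 31.2% in Mock. With the 2 Mock libraries left out of the fit, the members called numbered 8 in S5A and 5 in S7A cells, beside 51.5% and 35.6% of all genes, where BIK passed (0.60 and 0.63, adjusted p = 0.035 and 0.027).

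Other genes of the apoptosis pathway were called in both directions. Their counts stand beside 44.4% of all genes called in Degron cells and 28.9% to 49.7% in the mutant lines. Of 9 further BCL2 family genes tested of 11 listed, 1 rose and 2 fell in Degron cells (median 0.06), and in the mutant lines 1 to 3 rose and 2 to 4 fell (medians -0.21 to 0.18). BCL2L2, which encodes the survival protein BCL-w, was at 9.13 and 12.8 CPM in treated Degron cells, against 27.5 and 28.0 CPM in untreated ones (-1.34 ± 0.13). BCL2L12 was at 0.46 ± 0.17 in Degron cells. BCL2L2 fell in all 5 mutant lines as well (-2.01 in S5A to -0.63 in S7A), and was at 0.04 in WT cells. Of 13 genes of the apoptosome and the caspases, 4 rose and 2 fell in Degron cells (median 0.09), with 1 to 5 risen and 1 to 5 fallen in the mutant lines (medians -0.09 to 0.17). CASP9, the initiator caspase of the mitochondrial pathway, was at -0.50 ± 0.13, CASP2 at -0.60 ± 0.08, and CYCS, which encodes cytochrome c, at 0.51 ± 0.18 in Degron cells.

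Of 7 inhibitors of apoptosis, 1 rose and 1 fell in Degron cells (median 0.00) and 0 to 1 rose and 0 to 2 fell in the mutant lines. XIAP, a direct inhibitor of caspases, was at -0.83 ± 0.20 and BIRC5, which encodes survivin, at 0.26 ± 0.07 in Degron cells. Of 9 death receptor genes tested of 10 listed, 1 rose and 2 fell in Degron cells (median -0.02), with 1 to 2 risen and 1 to 3 fallen in the mutant lines. TNFRSF1A, a receptor of tumour necrosis factor, fell in Degron cells (-0.98 ± 0.14) and in all 5 mutant lines (-1.54 in S5A to -0.37 in S7A). TNFRSF10B, a receptor of TRAIL, rose in Degron cells (0.21 ± 0.08) and in all 5 mutant lines (0.29 in S7A to 0.91 in Y1F).

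Of 12 regulators of the members, 2 rose and 5 fell in Degron cells (median 0.15), with 2 to 3 risen and 1 to 4 fallen in the mutant lines. ATF4, the transcription factor of the integrated stress response, was at 94.2 and 109 CPM in treated Degron cells, against 668 and 621 CPM in untreated ones (-2.66 ± 0.11). It fell in the mutant lines too, between -2.41 in S5A and -0.89 in S2A, and was at -0.27 in WT cells. USP9X, a deubiquitinase of MCL1, was at -0.66 ± 0.12, TP73, a relative of p53, at -0.84 ± 0.26 and MARCHF5, a mitochondrial ubiquitin ligase, at 0.61 ± 0.13 in Degron cells. In WT cells 0 genes of any of the 5 lists were called by edgeR's test, with 1, 1, 1, 2 and 3 at an unadjusted p under 0.05 in the order given. The genes named from these lists were chosen because they passed in Degron cells (adjusted p of at most 0.036), so their calls there are no separate result. They were fitted on the TMM scale with all libraries alone. In Degron cells the authors' factors moved the members' values by a median of -0.85 and mitochondrial scaling by -0.48, and in S7A cells by -0.82 and -0.39. Both scalings shift all genes of a library alike, so the direction of rises smaller than these shifts depends on the scale.

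Over the 15 group means of log2 CPM, the genes that followed each member most closely, among genes of at least 5 CPM on average, are given by Pearson r. For MCL1 they were NKRF (0.943), NOL9 (0.931) and LTV1 (0.931), for BCL2 TOX3 (0.945), SERTAD4 (0.936) and CLMP (0.933), and for BCL2L1 AOPEP (0.978), PCBD2 (0.975) and UBE2Q2 (0.974). For BAX they were NOP10 (0.971), DAZAP2 (0.960) and INPP5K (0.957), and for BAK1 RPP25 (0.982), CBX2 (0.971) and SPEN (0.966). For BCL2L11 they were GPAM (0.907), GATAD2A (0.888) and ATP6V0B (0.887), for PMAIP1 HOXD13 (0.966), UAP1 (0.964) and KLF9 (0.961), and for BBC3 SYT15B (0.900), CNOT3 (0.886) and AHDC1 (0.885). For HRK they were BCL11A (0.949), RNF182 (0.944) and LHX8 (0.941), and for BIK TSPEAR (0.947), APOLD1 (0.942) and CHST8 (0.940). Mock, which stands apart from the other groups, weighs in each of these values.

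Over the 14 groups without Mock, HRK was followed most closely by TRIB3 (0.955), a stress-induced pseudokinase gene that ATF4 activates, then OPA3 (0.936) and ZFAT (0.920). BAK1 was followed by PHF23 (0.982), RPP25 (0.981) and ITPRIPL1 (0.980), BCL2L1 by POMK (0.973), NCOA6 (0.972) and ATF7IP (0.957), and BCL2 by LEF1 (0.971), FLI1 (0.970) and CHST15 (0.967). The nearest gene was THUMPD1 (0.947) for MCL1, MRPL57 (0.954) for BAX, YTHDF1 (0.908) for BCL2L11, FAM72B (0.862) for PMAIP1, KCNC4 (0.920) for BBC3 and FTL (0.940) for BIK. Apart from NKRF for MCL1, RPP25 for BAK1 and TSPEAR for BIK, no gene was among the 3 nearest to a member both with and without Mock. These values describe groups that share libraries and depth, and no test was made.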

How the data were processed

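Poly(A) RNA-seq counts of 30 libraries, 15 groups of 2, were used as deposited. The authors made whole-number counts per gene from reads mapped to hg38 and dm6. The submitters' processing notes name STAR 2.7.3a, featureCounts 2.0.1 and Trim Galore 0.6.2. No fly gene is among the 61578 listed; annotation release, strand and multi-read settings have no source here. The deposited TPM values summed to 998366 to 999347 per library. For each line the authors' deposited table, from DESeq2 1.24.0 per the submitters' processing notes, gives a base mean (a signal: the mean of the 4 libraries' counts after division by their factors). It also gives the authors' log2 fold change, p-value and adjusted p. Their factors were solved from these base means.

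Counts were tested with edgeR 4.0.16 (robust quasi-likelihood, TMM) in R 4.3.3, 1 coefficient per group over all 30 libraries, with 15 residual degrees of freedom and a common dispersion of 0.0122. filterByExpr (minimum count 10, minimum total 15) kept 19982 genes and left out 41596. Benjamini-Hochberg adjustment ran within each of 20 comparisons, with calls under 0.05. Standard errors equal the fold change on the log2 scale divided by the square root of F. Library totals limit the precision of low genes, of which HRK and BIK had the fewest counts.

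Members, lists, tests and alternatives were chosen with earlier results of these data known. Named genes are the 10 members, POLR2A, per list up to 4 genes with the largest called change in Degron cells, and the 3 genes nearest to each member by Pearson r over the 15 group means of log2 CPM (0.5 CPM added); the 14-group version was added after the data were seen. A gene that this rule selects is not reported here. Replicate numbers were not used as pairs, since deviations of same-numbered treated and untreated libraries correlated at -0.74 to 0.64 over the 7 lines. Within groups, chi-square over its degrees of freedom was 1.29 to 27.7, so no library was taken as a repeat of another. Alternatives were size factors and the Wald test of DESeq2 1.42.0, a scaling by mRNAs of the mitochondrial genome, the authors' factors, no filter on low counts, a mean of at least 5 CPM, a block for replicate number, fits of single lines and fits without 1 library. GC correction, a fit without Mock and a crossed block were added after seeing the data. Gene positions are from GENCODE release 29 (GRCh38) and promoter sequences from RefSeq on GRCh38.p14. Plots were drawn in matplotlib 3.10.9 with Python 3.11.15, pandas 2.3.3, numpy 2.4.6 and scipy 1.17.1.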

Additional observations from a re-analysis of the deposited data

Results flagged for a closer look

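The change with treatment differed between 2 lines, by an interaction test in edgeR (log2 scale, n = 2 libraries per group), in 14 cases. For WT against Degron cells the differences were 1.01 for BCL2L1, -0.49 for BCL2L11, 1.77 for BBC3, 2.18 for HRK and 0.85 for BAK1. For Y1F against WT cells they were -1.57 for HRK and -0.78 for BAK1. For S2A against WT cells they were 0.88 for BCL2L11, 1.03 for PMAIP1 and -1.13 for HRK. For S5A against WT cells they were 0.65 for BCL2L11, -0.76 for HRK, -0.75 for BAX and -1.57 for BAK1. HRK was in all 4 of these comparisons. The cause of these differences was not tested.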

How the results depend on the processing

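Of 200 values of single members (10 in each of 20 comparisons), 25 turned their sign with mitochondrial scaling and 23 of 130 with the authors' factors, of which 5 and 7 were called on either scale. GC correction turned 14 of 200 (8 of 130 with the block), the mean of at least 5 CPM 5 of 180, DESeq2 size factors and its Wald test 3 each, the fit without Mock 2 of 190, no filter 1, a line's own libraries 1 of 70, and leaving out 1 library 67 of 1040, none of them called on either side. The authors' factors were not used for comparisons between untreated groups or with Mock, and BIK was not tested at a mean of at least 5 CPM. Among the called values, with the authors' factors BCL2L11 was at -0.63, BAX at -0.81 and BIK at -0.11 in Degron cells, PMAIP1 at -0.070 in S2A and BCL2L11 at -0.57 in S5A cells; the differences of BCL2L11 were 0.11 for WT against Degron and -0.054 for S5A against WT. With mitochondrial scaling MCL1 was at -0.29 and PMAIP1 at -0.052 in S2A, BCL2L11 at -0.43 and PMAIP1 at -0.46 in T4V, and BCL2L11 at -0.36 in S5A cells. Both scalings shift all genes of a library alike.

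Counts of members called, of 10, moved by over 1.5 times as follows. No share over all genes stands beside the counts in this section, and that share can move with the setting as well. The counts therefore describe the processing and are no result about the members. With mitochondrial scaling there were 3 in WT, 9 in T4V and 8 in S7A cells, 1 for Y1F and 3 for T4V against WT, and 3 each for untreated T4V and S5A against Degron. The authors' factors gave 7 in T4V and 9 in S7A cells, and against WT 7 for Y1F, 1 for S2A, 7 for S5A and 6 for S7A. DESeq2 size factors gave 1 for Y1F and 2 for S5A against WT, and the Wald test of DESeq2 1 for T4V and 2 for S5A. Without the low-count filter there were 1 for T4V and 2 for S5A against WT, and 2 for T4V and 4 for S7A untreated against Degron. At a mean of at least 5 CPM there were 1 in T4V and 2 in S7A cells, and against WT 1 for Y1F, 5 for S2A, 1 for T4V and 2 for S5A. A line's own 4 libraries gave 0 calls by edgeR in WT cells, where all libraries gave 4 members at an unadjusted p under 0.05 and DESeq2 called 1, and 1 each in T4V and S7A cells. GC correction gave 4 in WT and 6 in T4V cells, 6 for Y1F, 7 for S2A, 5 for T4V, 7 for S5A and 5 for S7A against WT, and 4 for WT, 8 for Y1F, 5 for T4V, 4 for S5A and 6 for S7A untreated against Degron. The cause was not tested.

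With the replicate number as a block, chosen although the numbers do not pair the samples, members called were 0 in WT by edgeR (4 at an unadjusted p under 0.05 without the block) and 1 in T4V cells, and 1 for Y1F and 2 for S5A against WT. GC correction with the block gave 4 in WT and 6 in T4V cells, and 6 for Y1F, 6 for S2A, 4 for T4V, 8 for S5A and 5 for S7A against WT. The crossed block, added since 3 lines had negative correlations (-0.74 in Degron, -0.60 in Y1F and -0.49 in WT), gave 4 for Y1F, 5 for S2A and 4 for T4V against WT. The block changed no direction, and of 130 values of single members 10 lost their call under it.

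With each library left out in turn, members called ranged from 6 to 8 in Degron, 0 to 1 in WT, 6 to 7 in Y1F, 4 to 6 in S2A, 1 to 3 in T4V, 4 to 6 in S5A and 2 to 3 in S7A cells. They ranged from 2 to 5 for WT against Degron, and against WT from 1 to 4 for Y1F, 2 to 3 for S2A, 0 to 3 for T4V and 2 to 3 for S5A, with 0 throughout for S7A. They ranged from 8 to 9 for untreated Degron against Mock, and against untreated Degron from 0 to 2 for WT, 0 to 2 for Y1F, 4 to 6 for S2A, 1 to 2 for T4V and 0 to 1 for S5A, with 2 throughout for S7A. Depth limits HRK and BIK most, with 27 to 120 and 12 to 108 counts per library in the 7 lines.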
